A study of Mus musculus with 8 samples.

Results

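The data cover 5 stretches of the mouse genome, 1 each on chromosomes 3, 4 and 11 and a pair on chromosome 19, that had been singled out as possible inherited differences between mice. They were chosen by position, after earlier results on these arrays had shown unusual values there. On build mm9 their probes reach over chr3:43612388-44984569, chr4:121003233-121909306, chr11:70607564-71395159, chr19:9088472-9587710 (proximal) and chr19:12006654-12698104 (distal). The windows hold 312 of the 235402 probes measured and of the 221455 autosomal ones, with 63 on chromosome 3, 29 on chromosome 4, 78 on chromosome 11, 41 in the proximal and 101 in the distal window of chromosome 19. Because the choice rested on the values of these arrays, the levels below are descriptions. The segments were tested only between transplant stages. The choice did not name that contrast, but the tests use values of the same arrays, so their p-values carry the same limit. The whole-array fit against the myeloid sample is given by its count over all windows.

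Array comparative genomic hybridisation sets 2 DNA samples against each other on the same probes. A probe gives signal in a dye where that DNA holds the matching sequence or one much like it. Laboratory mouse strains differ by inherited deletions and duplications. A segment that the reference animal lacks appears as a strong gain in a sample that holds it, and a segment absent from both DNA samples leaves a ratio of background light over background light. A transplanted mouse can hold cells of donor and of host, so an inherited difference between donor and host can show in such tissue as a partial signal.

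The study profiled tissue from Balb/c mice labelled SEC31A-JAK2, which carry a fusion of the tyrosine kinase JAK2 to SEC31A, after bone marrow (BM) transplant. Each of 8 DNA samples was labelled with Cy5 and hybridised once, on an Agilent mouse array, against Cy3-labelled DNA described as a normal wildtype Balb/c mouse. The primary transplants were 3 T-lymphoblastic lymphomas (T-LBL), M7 and M9 from spleen and M12 from a neck lymph node, and 1 myeloid hyperplasia, M10, from BM. The 4 secondary T-LBL derived from mouse 12 were M12.50, sampled at a neck lymph node, and, from pancreas, M12.53, M12.52 and M12.49. The labels give no age and no sex, do not say which cells were donor and which host, and give no strain other than Balb/c for any DNA. The labelled cell types were not checked here. No DNA from non-tumour tissue of the same mice was analysed, so whether a difference was inherited was not tested.

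Depth on an array is signal over background. The share of reference spots well above background, as the scanner software flagged them, was 53.8% on M7 and at least 98.4% on the other arrays. The share for the sample dye ran from 92.8% to 99.7%. Neighbouring autosomal probes differed in log2 ratio by a noise SD of 0.47 on M7, 0.43 on M12.52 and 0.22 to 0.28 on the other arrays. A log2 ratio below is sample over reference, centred on the autosomal median of the array, and a level is the log2 signal of 1 dye minus its autosomal median. Errors within an array are standard errors (SE) over its probes, which share that hybridisation and are not replicates.

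Within each window 1 run of consecutive probes had a dim reference, meaning not well above background on at least 4 of the 8 arrays, with gaps of up to 2 probes bridged and at least 5 probes in the run. These runs are called blocks, and the rest of each window its flank. The chromosome 3 block spanned chr3:44131436-44516704 with 18 probes over 385 kb. The chromosome 4 block spanned chr4:121640501-121798353 with 11 probes, and the chromosome 11 block spanned chr11:71014299-71107103 with 9 probes. The proximal chromosome 19 block spanned chr19:9227483-9306633 with 8 probes, and the distal block spanned chr19:12274437-12302234 with 6 probes. Of the 312 probes, 47 had a reference that was dim on at least 4 arrays, against 0.363% of autosomal probes: 16 in the chromosome 3 block, 28 in the other blocks and 3 outside them. The sample dye was dim on at least 4 arrays at 36 of the 312 probes (0.633% of autosomal probes), and both dyes together at 35 (0.282%). In windows of 10 consecutive probes across the autosomes, the reference was dim (under 25% of probes well above background) on at least 4 arrays in 0.0181%, which is 4 of 22153 windows. These were 1 window in the chromosome 3 block, 1 that overlapped the chromosome 11 block and its distal flank, and a neighbouring pair at chr4:111809439-112023095, outside the 5 stretches.

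The chromosome 11 stretch was named for the Nlrp1 cluster. Nlrp1 genes encode NLR proteins that can assemble inflammasomes, the complexes that activate caspase-1, and Nlrp1b of susceptible strains responds to anthrax lethal toxin. In the RefSeq gene order on assembly GRCm38.p6, Nlrp1a is followed by Nlrp1b and then by the transcribed pseudogene Nlrp1c-ps. The array files give no gene for a probe and their build differs from that assembly, so no probe is placed in a gene here. The start-site windows of Nlrp1a and Nlrp1b, from 250 bases before to 50 after the start, are shown because they let a reader see how alike copies in this cluster can be. The RefSeq table holds 3 windows for the 2 genes, and of the pair for Nlrp1b the one with more bases identical to Nlrp1a is printed. The other, at chr11:71201407-71201706, shared a longest run of 10 bases with Nlrp1a. Both printed windows are from RefSeq on GRCm38.p6, minus strand, at chr11:71144655-71144954 for Nlrp1a and chr11:71230684-71230983 for Nlrp1b. The capitals mark the longest run that the pair share without a difference, 37 bases.
Nlrp1a: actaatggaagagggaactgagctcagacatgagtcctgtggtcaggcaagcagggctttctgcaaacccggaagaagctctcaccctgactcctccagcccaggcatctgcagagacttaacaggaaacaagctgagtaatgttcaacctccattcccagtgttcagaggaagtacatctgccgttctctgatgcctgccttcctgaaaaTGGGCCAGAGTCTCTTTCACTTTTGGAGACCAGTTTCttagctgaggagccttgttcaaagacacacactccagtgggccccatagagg
Nlrp1b: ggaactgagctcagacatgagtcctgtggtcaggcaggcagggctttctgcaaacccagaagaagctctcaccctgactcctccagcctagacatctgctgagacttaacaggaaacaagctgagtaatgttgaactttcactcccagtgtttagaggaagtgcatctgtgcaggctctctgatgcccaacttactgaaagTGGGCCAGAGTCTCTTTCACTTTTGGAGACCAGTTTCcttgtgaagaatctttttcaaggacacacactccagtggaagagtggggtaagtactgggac
Over the 290 aligned positions where the printed windows overlap, they were identical at 253 (87.2%), and 6 of the 290 were gaps. A 60-base probe from such copies can take up DNA from more than 1 of them, and which array probes this touches was not tested.

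The chromosome 3 block was the only one of the 5 in which a dye was bright on some arrays and dim on others. Its signal was at the ordinary autosomal level in the sample DNA of M9 and M10, at a median of 60.3% of the M10 signal in M7, and at 4.65% to 12.4% of it in M12 and its 4 secondary tumours. The reference dye was dim in this block on 7 arrays and bright on M12. The mean log2 ratio over the 18 probes was 5.12 ± 0.29 (SE) on M10, 4.32 ± 0.34 on M9 and 1.73 ± 0.18 on M7. It was 1.97 ± 0.25 on M12.49, 1.66 ± 0.27 on M12.52, 0.69 ± 0.14 on M12.50 and 0.44 ± 0.19 on M12.53. On M12 it was -3.40 ± 0.12, the 1 array of 8 where the sample lay below the reference. The highest values were thus in M9 and M10, and M12 stood alone below 0.

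**Figure D1:**
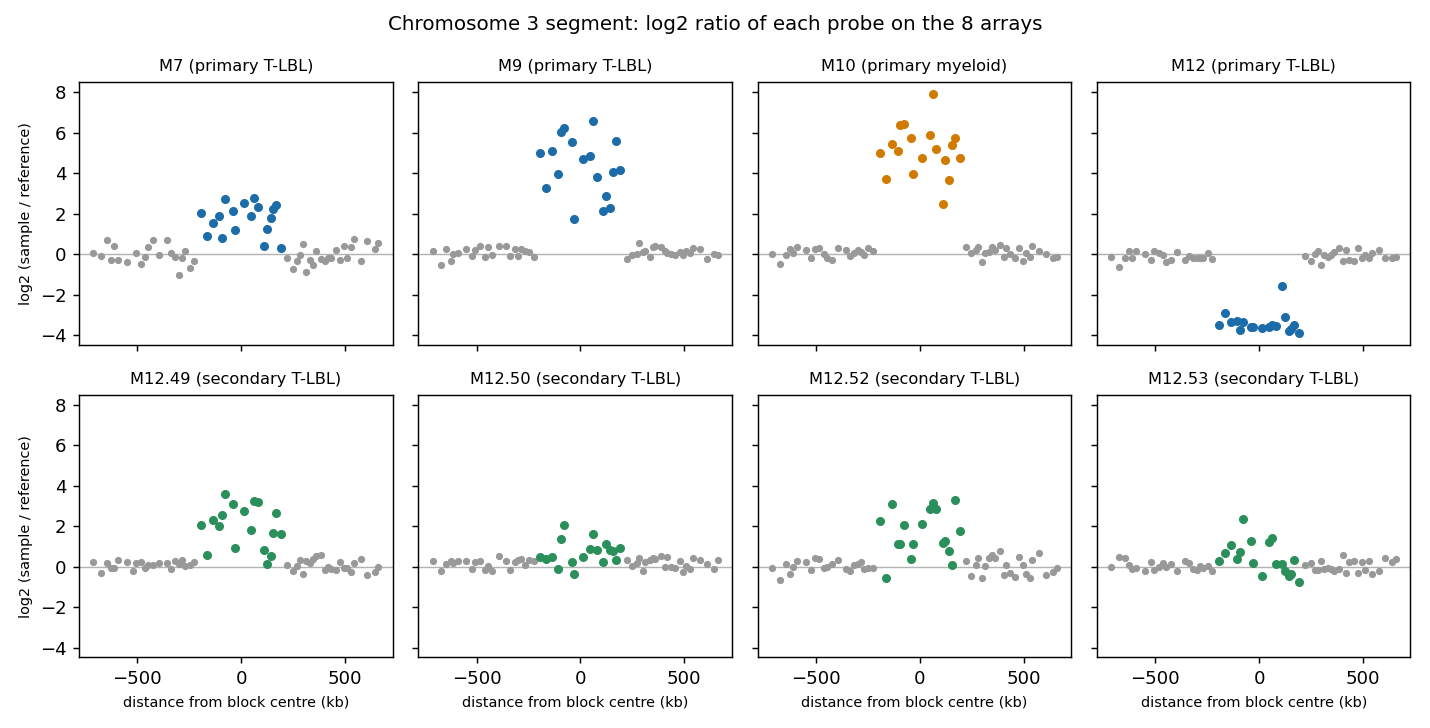
Log2 ratio of sample over reference (y axis) of each probe of the chromosome 3 stretch against its distance in kb from the centre of the block (x axis), 1 panel per array. Coloured points are the 18 probes of the block, grey points the 45 flank probes. The block stands at a mean of 5.12 on M10 and 4.32 on M9 and at -3.40 on M12, while the flank means lie between -0.10 and 0.17 on all 8 arrays.

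Every probe of the block took part. On M9 and on M10, all 18 probes had a sample at least 1 log2 unit above the reference, which 0.0239% of autosomal probes (53 in all) had on both arrays, and none of the 35 such probes elsewhere had another next to it. On M12 all 18 probes lay at least 1 log2 unit below the reference, which 0.0862% of autosomal probes did. The longest run of such probes elsewhere on M12 was 24 probes, on chromosome 14. The 18 probes of the block were the only autosomal probes with both patterns. These counts come from the values by which the stretch was chosen.

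The edges of the block were sharp at the spacing of the probes. The last probe before it, at chr3:44099344-44099403, had log2 ratios between -0.33 and 0.30 on the 8 arrays. The first probe inside, at chr3:44131436-44131495, read 2.05 on M7, 4.99 on M9, 4.98 on M10 and -3.51 on M12, and between 0.29 and 2.24 on the secondary tumours. The last probe inside, at chr3:44516645-44516704, read 4.14 on M9, 4.77 on M10 and -3.89 on M12, and the next probe, at chr3:44547310-44547369, lay between -0.24 and 0.36 on all 8 arrays. On M9, M10 and M12 the step therefore fell within 1 probe interval at each end. On M7 the last probe inside read 0.31, and on M12.53 it read -0.77, so the distal edge is not placed as closely there. The flank means of this stretch, over 45 probes, lay between -0.10 and 0.17.

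The probe with the highest median over the 8 arrays was at chr3:44386052, with 7.90 on M10, 6.57 on M9, 2.79 on M7 and -3.51 on M12. Its secondary values were 1.42 on M12.53, 3.26 on M12.49, 3.15 on M12.52 and 1.63 on M12.50. The lowest probe of the stretch, at chr3:43651679, lay in the flank and had a median of -0.40. At 2 probes of the block, starting at 44159263 and 44434450, the reference was above background on 6 of the 8 arrays. The log2 ratio of the second was 2.48 on M10, 2.12 on M9 and -1.55 on M12, the value closest to 0 of the 18 probes on M12. These 2 probes were chosen after their values were seen.

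The dyes taken one at a time show which DNA made each ratio. In the reference dye, the mean level of the block was 0.10 ± 0.15 (SE) on M12, where 18 of 18 probes were well above background. On the other 7 arrays it was -2.23 on M7, -3.79 on M12.53, -4.30 on M9, -4.82 on M12.52, -4.85 on M12.49, -4.95 on M12.50 and -5.04 on M10, with 1 to 3 of 18 probes above background. The level on M7 is bounded by that array, whose lowest autosomal reference signal lay at -2.57. The reference of M12 thus held the block at the autosomal level and did not overlap with the other 7.

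In the sample dye, the mean level was 0.09 ± 0.21 (SE) on M10, 0.05 ± 0.21 on M9 and -0.47 ± 0.19 on M7. It was -3.27 ± 0.20 on M12, -2.86 ± 0.25 on M12.49, -3.14 ± 0.21 on M12.52, -3.37 ± 0.21 on M12.53 and -4.25 ± 0.22 on M12.50. The 3 arrays of other mice and the 5 of mouse 12 and its transplants did not overlap. M12, a primary tumour by its label, had a sample level within the range of the secondary tumours.

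**Figure D2:**
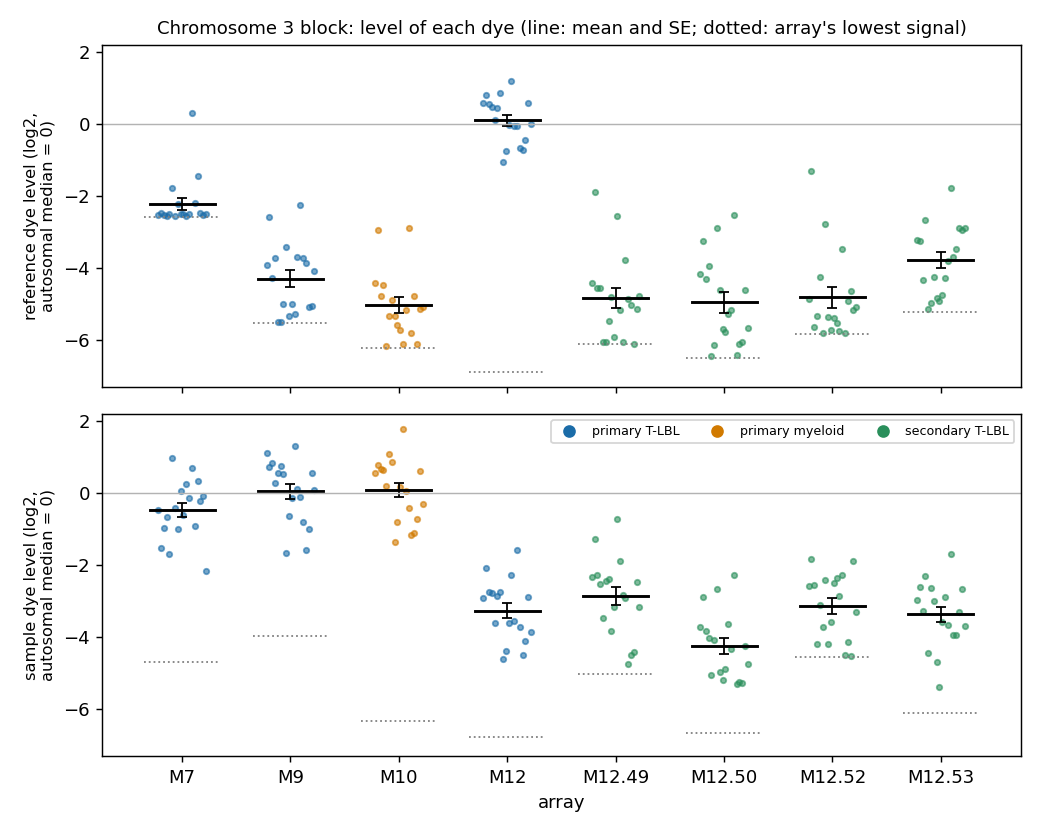
Level of the reference dye (top) and of the sample dye (bottom) at the 18 probes of the chromosome 3 block on each array, in log2 units with the autosomal median of the array at 0. Points are probes, bars are the mean with its SE over probes, and dotted lines are the lowest autosomal signal of that array. The reference is at 0.10 on M12 and at -2.23 or lower elsewhere, and the sample is at -0.47 or higher on M7, M9 and M10 and at -2.86 or lower on M12 and its 4 secondary tumours.

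Where a dye was dim, the ratio gives only a bound. Dim reference probes were raised to the weakest autosomal signal that carried the above-background flag on that array. The sample was then at least 14.4-fold higher than the reference on M10, at least 8.64-fold higher on M9 and at least 1.66-fold higher on M7. On M12 the sample was at 9.50% of the reference, with 15 of 18 sample probes still above background. No bound is given for the secondary tumours, in which the sample dye was dim or mixed.

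The sample signal left in the mouse 12 tumours can be set against M10, probe by probe. The median over the 18 probes was 8.96% of the M10 signal on M12, with a middle 50% of 8.18% to 9.52%. It was 12.4% on M12.49 (8.84% to 16.5%), 11.6% on M12.52 (9.87% to 14.3%), 9.1% on M12.53 (6.95% to 12.2%) and 4.65% on M12.50 (3.54% to 5.63%). M9 was at 96.6% (79.5% to 121%) and M7 at 60.3% (36.4% to 125%). In this order (M9, M7, M12.49, M12.52, M12.53, M12, M12.50) the middle 50% of M7 and M9 overlapped, and so did each neighbouring pair from M12.49 to M12. The gap between M7 and M12.49 and that between M12 and M12.50 showed no overlap.

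Whether the remaining signal was above background was measured with the negative control spots of each array, 1187 to 1232 per array. The 99th percentile of those spots in the sample dye was exceeded by 10 of 18 block probes on M12, 14 on M12.49, 9 on M12.52, 8 on M12.53 and 3 on M12.50. It was exceeded by all 18 on M7, M9 and M10. On M12 the block's median sample signal was 10.6% of the autosomal median, against 1.34% for the dim sample probes of the other 4 blocks and 8.29% for that 99th percentile. On M12.50 it was 5.09%, under the 9.98% of its negative controls. The block's median on M12.53 was also under the 99th percentile of its controls, and on M12.49 and M12.52 it was above. By this limit, most block probes exceeded the controls on M12 and M12.49, and most did not on M12.50 and M12.53. On M12.52 it was 9 of 18, neither most nor fewer. The order depended on the limit. By the flag for well above background, 15 of 18 sample probes passed on M12, 11 on M12.53, 8 on M12.49, 7 on M12.50 and 2 on M12.52. The reference dye passed its own 99th percentile at 18 probes on M12, 7 on M9 and 2 or 3 on each other array. Whether the remaining sample signal came from the block's own sequence was not tested. If it did, fewer cells with the segment and a smaller share of such DNA per cell cannot be told apart in bulk tissue.

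Tumours of mouse 12 and of other mice were compared within the slides and scan sessions that held both. In scan session 2, the block's log2 ratio was 5.12 on M10 against 0.69 on M12.50 and 0.44 on M12.53. In scan session 3, it was 4.32 on M9 against 1.97 on M12.49 and 1.66 on M12.52, and on the slide shared by M9 and M12.50 it was 4.32 against 0.69. M7, M9 and M12.52 were the second use of a slide code, M10 and the other arrays the first. M7 was alone in its scan session, and on its slide it was with M10. M12 was alone on its slide and in its scan session, and its file alone placed probes on build mm8. No other array shares its batch, and the part of the batch in its reference levels was not tested. The X and Y levels of both its dyes are given below.

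The reference dye of M12 differed from the others elsewhere too, on the sex chromosomes. Its median level over 11957 chromosome X probes was 0.04, against -0.92 to -0.81 on the other 7 arrays. Over 606 chromosome Y probes it was -4.32, against -0.87 to -0.71. So the DNA labelled as reference on M12 had X signal like the autosomes and little Y signal, and those of the other arrays had X and Y signal between 52.8% and 61.1% of the autosomal median. The labels describe all 8 references alike.

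Across the autosomes, 2 of 22153 windows of 10 probes had a reference level on M12 that differed by 2 or more log2 units from the median of the 6 arrays that remain without M7 and M12. The larger difference, 4.78, lay in the chromosome 3 block, and the other, 3.01, overlapped its proximal end. The next were 0.99, in a window over the distal end of the block, and 0.83 on chromosome 12. Single probes whose reference was above background on M12 and dim on at least 5 other arrays made up 0.0759% of autosomal probes. They were 168 in all, with 16 in the chromosome 3 block, 1 in the other blocks and 151 outside the 5 stretches. The longest run of them was 10 probes in the block and 1 probe elsewhere. By this measure the M12 reference departed from the others over a run of autosomal probes only at the chromosome 3 block.

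The sample dye on X and Y also differed between the mice. On M10 the X level was -0.03 and the Y level -2.86, on M9 they were -0.50 and -1.03, and on M7 -0.96 and -0.99. On M12 and its secondary tumours the X level ran from -0.87 to -0.71 and the Y level from -1.03 to -0.71. M10 and M9, which held the chromosome 3 block at the full level, were also the samples with the highest X levels, and M7 was not. The part of a mixture of cells from different animals in the chromosome 3 values was not tested.

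**Figure D3:**
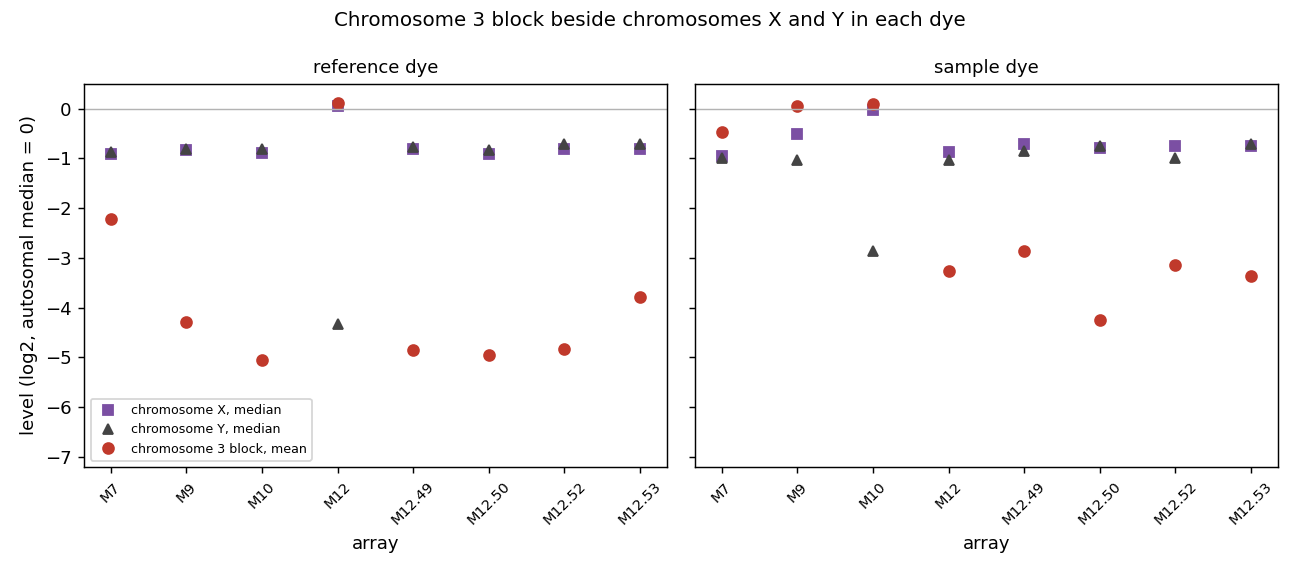
Mean level of the chromosome 3 block (circles) beside the median level of the chromosome X (squares) and chromosome Y probes (triangles) on each array, in the reference dye (left) and the sample dye (right), in log2 units with the autosomal median at 0. In the reference panel M12 alone has block and X at 0.10 and 0.04 and Y at -4.32. In the sample panel M10 has block and X at 0.09 and -0.03 and Y at -2.86.

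The blocks on chromosomes 4, 11 and 19 behaved in another way: both dyes had low mean levels on every array. In none of the 32 pairs of these 4 blocks with an array was either dye bright, meaning 75% or more of the probes well above background. Both dyes were dim in 9 pairs, and at least 1 dye was mixed, with 25% or more of its probes above background, in the other 23. No array held them at a bright level in 1 dye against a dim level in the other, and they are called here by their position. The labels give Balb/c for both DNA samples, so dyes that are low alike cannot show whether these stretches vary between strains. Where both dyes are dim, sequence missing from both DNA samples and probes that take up no DNA give the same dim signal and cannot be told apart.

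**Figure D4:**
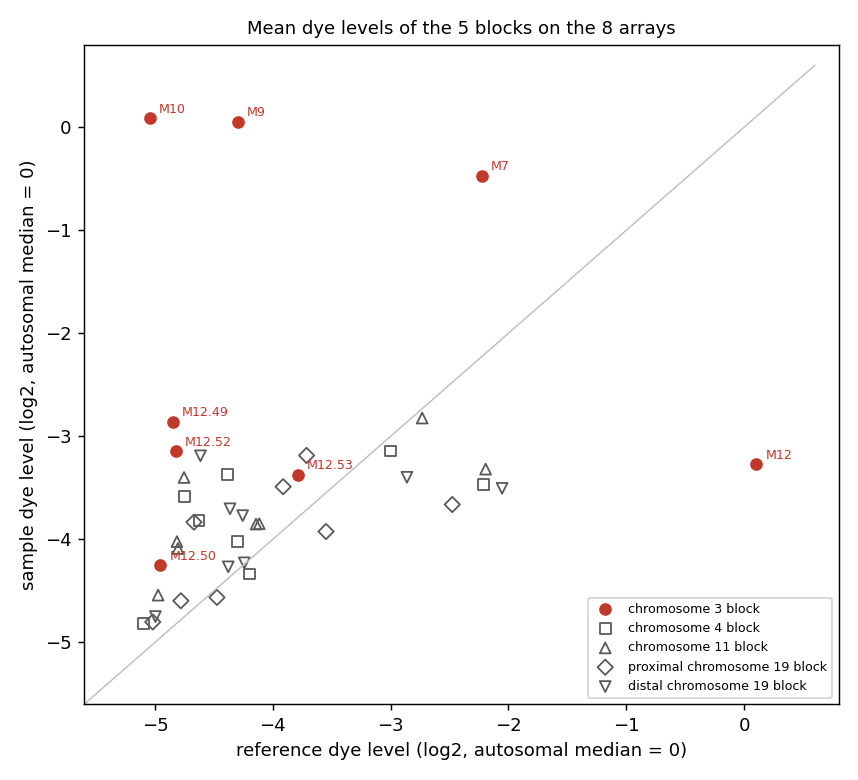
Mean sample dye level (y axis) against mean reference dye level (x axis) of the 5 blocks on the 8 arrays, in log2 units with the autosomal median at 0. Each point is 1 block on 1 array, the line marks equal levels, and filled points with array names are the chromosome 3 block. All points of the other 4 blocks lie at -2.05 or lower in the reference and at -2.82 or lower in the sample.

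The chromosome 4 block had reference levels between -5.10 and -2.22 and sample levels between -4.82 and -3.14. At 9 of its 11 probes the reference was dim on at least 4 arrays, and at 8 both dyes were. Its mean log2 ratio was -1.28 on M7, 0.99 on M9, 0.26 on M10, 0.26 on M12, -0.11 on M12.53, 0.80 on M12.49, 1.14 on M12.52 and -0.16 on M12.50. Both signs occurred within the primary and within the secondary tumours. The probe with the highest median, at chr4:121702754, had a dim reference on 8 arrays and a median of 0.58. The lowest, at chr4:121093815, lay in the flank at -0.67 and was above background on nearly all arrays, with a dim reference on 1. The flank means over 18 probes lay between -0.10 and 0.13.

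The chromosome 11 block, in the stretch named for the Nlrp1 cluster, had reference levels between -4.97 and -2.19 and sample levels between -4.54 and -2.82. Its mean log2 ratio was -1.15 on M7, 1.33 on M9, 0.28 on M10, 0.41 on M12, -0.07 on M12.53, 0.70 on M12.49, 0.77 on M12.52 and 0.25 on M12.50. M7 and M9, a pair of primary tumours, had the lowest and the highest value. On M10 and M12.50 the reference was above background at 5 of 9 probes and the sample at 6, and the mean ratios there were 0.28 ± 0.16 and 0.25 ± 0.10 (SE). The highest probe, at chr11:71069588, read 2.59 on M9 and -0.53 on M7, and the lowest, at chr11:71356099, lay in the flank with a median of -0.67. Past the block, the probe at chr11:71121491-71121550 had a reference above background on 7 of 8 arrays.

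The proximal chromosome 19 block had reference levels between -5.02 and -2.48 and sample levels between -4.80 and -3.19. Its mean log2 ratio ran from -1.21 on M7 to 0.82 on M12.49. Within it, the probes starting at 9237765 and 9246749 were above background in the reference on 7 of 8 arrays, so the block was not dim throughout. Outside it, the probes starting at 9405619 and 9526844 had a dim reference on 7 and 8 arrays. The block also held the highest and the lowest probe of its stretch, at chr19:9261303 with a median of 0.81 and at chr19:9296962 with -0.69.

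The distal chromosome 19 block had reference levels between -5.00 and -2.05 and sample levels between -4.75 and -3.19. Its mean log2 ratio ran from -1.47 on M7 to 1.40 on M9. Only 4 of its 6 probes had a dim reference on at least 4 arrays. The highest probe of the stretch, at chr19:12308399, was the first after the block, with a median of 0.44 and 1.33 on M9. The lowest, at chr19:12390228, had a median of -0.51.

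The ratios of the block probes dim in both dyes were set beside the lowest signals of their array. Feature Extraction gave each dye on each array a lowest signal, and the ratio of the lowest sample signal to the lowest reference signal differed between arrays. The median ratio of block probes dim in both dyes was -1.82 on M7, where the ratio of lowest signals was -2.15, and 1.44 on M9, where it was 1.54. The matching values were -0.10 and -0.13 on M10, 0.09 and 0.08 on M12, -0.65 and -0.86 on M12.53, 1.03 and 1.08 on M12.49, 1.21 and 1.24 on M12.52, and -0.15 and -0.17 on M12.50. The order of the arrays was the same in both. Of 187 values dim in both dyes, 113 lay within 0.5 of the ratio of lowest signals. These values were picked for being dim in both dyes, so some closeness to the lowest signals was built in. In the authors' LogRatio column, 82 of 272 values of these 4 blocks were exactly 0. Neither count was taken over the rest of the array, so neither can be called particular to these blocks.

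**Figure D5:**
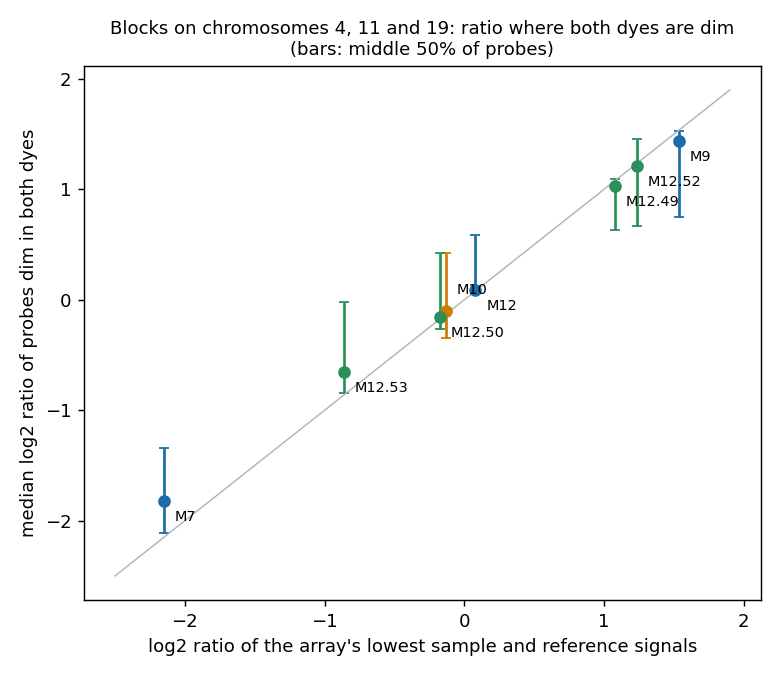
Median log2 ratio of the probes dim in both dyes in the blocks on chromosomes 4, 11 and 19 (y axis) against the log2 ratio of the lowest sample and reference signals of the same array (x axis), 1 point per array. Bars span the middle 50% of the probes and the line marks equality. Both run from about the same low value on M7 (-1.82 and -2.15) to the same high value on M9 (1.44 and 1.54).

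The same ratio of lowest signals bears on the chromosome 3 block in the secondary tumours, where both dyes were low. The block stood at 1.97 against 1.08 on M12.49, at 1.66 against 1.24 on M12.52, at 0.69 against -0.17 on M12.50 and at 0.44 against -0.86 on M12.53. The distance was 0.42 on M12.52, 0.86 on M12.50, 0.90 on M12.49 and 1.30 on M12.53, so on M12.49 and M12.52 a pair of empty dyes would by itself read above 1. On M7, M9, M10 and M12 the block lay 2.79 or more from that level.

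The contrast between transplant stages set the stretches of secondary T-LBL against those of primary T-LBL. All 4 secondary tumours derive from mouse 12, while M7 and M9 are other mice, so stage and mouse of origin cannot be told apart. None of the 5 stretches was called, in the ratio or in the sample dye alone. So few arrays could not have called a single stretch after adjustment. Over the whole chromosome 3 stretch, the mean log2 ratio was 0.25 ± 1.19 (SD, n = 3) in primary and 0.39 ± 0.20 (SD, n = 4) in secondary T-LBL, a difference of 0.15 (exact permutation test, two-sided, p = 0.80, Benjamini-Hochberg adjusted over 10 tests 1). Without M12 that difference was -0.50, so its sign rested on the array with the other reference. The sample dye level was -0.44 ± 0.61 (SD, n = 3) against -0.90 ± 0.24 (SD, n = 4), a difference of -0.46 (exact permutation p = 0.23, adjusted 1). Without M12 it was -0.75 (exact permutation p = 0.0667, the smallest that 15 splits give, adjusted 0.667). The sample dye of the 2 remaining primary tumours did not overlap with the secondary ones. That is a description, since the stretch was chosen on the values of these arrays. How many windows elsewhere separate in this way was not counted. M12, left out here, lay at -1.01, within the secondary range of -1.19 to -0.66. Within scan session 3, M12.49 and M12.52 lay 0.75 below M9 in the ratio and 0.92 below in the sample dye.

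On chromosome 4 the log2 ratio differed by 0.11 between secondary and primary T-LBL, on chromosome 11 by -0.01, and on chromosome 19 by 0.08 in the proximal and by -0.02 in the distal stretch. The exact permutation p-values of these 4 ratios were 0.57 to 0.94, and all adjusted values were 1. The differences in the sample dye level were -0.03, 0.04, -0.05 and -0.001 in the same order. With 3 arrays against 4, the smallest p is 0.0286, and the 4 secondary tumours share an origin with M12, so the arrays are not independent.

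Windows of 10 consecutive probes were also fitted over all autosomes with limma. Between secondary and primary T-LBL, 0% of 22153 windows had an adjusted p under 0.05, 331 had an unadjusted p under 0.05, and none of the 35 windows touching the 5 stretches had either. With scan session as a block, 2 windows of the chromosome 3 stretch were lower in secondary T-LBL, by log2 differences of -1.86 ± 0.15 and -2.15 ± 0.14 (SE; limma adjusted p = 2.43e-05 and 5.44e-06). With slide as a block the same windows differed by -2.43 ± 0.23 and -3.19 ± 0.38 (limma adjusted p = 4.03e-05 and 0.00048). Either block takes M12 out of the contrast, so these values set the secondary arrays of 1 batch against M9 alone, on 2 and 1 residual degrees of freedom, and they lie where the stretch was chosen for its values. Without M12 and with no block, neither window was called. Between primary T-LBL and the myeloid sample, 0% were called and 174 had an unadjusted p under 0.05. In the 3 windows that overlap the chromosome 3 block, the mean of primary T-LBL minus M10 was -2.65, -4.19 and -1.08 (log2), given as a description since the stretch was chosen on these values. The fit gave the lone myeloid array the spread of the other groups, and the primary group held values of both signs there, from -3.36 on M12 to 3.85 on M9 in the middle window. A single window of the 22153 (0.00451%) had a dim reference and a bright sample on M9 and M10, and it was this middle window, chr3:44282970-44479634.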

How the data were processed

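DNA from 8 tissue samples was measured on 2-colour Agilent arrays, 1 array each, with no dye swap labelled. The authors deposited processed intensities of both dyes. These came from Feature Extraction 10.5.1.1, per the file headers, after background subtraction, spatial detrending and linear scaling of the dyes, while the submitters' processing notes name Agilent Feature Extraction 9.1.1. The deposited LogRatio column is the log10 of processed Cy5 over Cy3, and the deposited series table holds the same log10 values. Probes were placed on mm9, per the file headers, except in the file of M12 (mm8), whose probes took mm9 positions by name.

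Control spots and outlier spots were left out, spots of a probe were averaged, and log2 ratios and dye levels were centred on each array's autosomal median. The flag for a spot well above background is Feature Extraction's. The members, lists and block rule were chosen with earlier results of these data known. All stretches and blocks were described, with the probes of highest and lowest median per stretch and those beside block ends. Groups came from the labels, and nothing in them ties arrays to repeat samples, so p-values measure the spread between these arrays. Exact permutation tests ran over 35 splits with Benjamini-Hochberg adjustment over 10 tests, and limma 3.58.1 (R 4.3.3, lmFit and eBayes) over windows of 10 probes in 3 groups, after it was tested on simulated data. Alternatives were normexp background correction with an offset of 50, centring on the mode, kept outlier spots, reference probes above background only, the deposited log10 ratio, medians, batch blocks, array weights, windows of 5 and arrays left out. Normexp used the median spot intensities that the authors' files hold, where the plan had named mean signals. Promoters were aligned with match 1, mismatch -1, gap -2 and free ends. The other software was matplotlib 3.10.9, pandas 2.3.3, numpy 2.4.6 and Python 3.11.15. No genome of build mm9 was used, and no coordinate was converted.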

Additional observations from a re-analysis of the deposited data

Results flagged for a closer look

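The reference dye of M12 in the chromosome 3 block had a level of 0.10, where the other 7 references lay between -5.04 and -2.23. It stands out as a signal in a channel that the comparison of tumour groups does not use.

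Among the 4 secondary T-LBL, M12.53 stood apart from the other 3 in the reference dye in 3 of the 30 sets of values looked at, by the gap to its nearest neighbour. Its reference level was -3.79 in the chromosome 3 block, where the nearest was -4.82. It was -2.86 in the distal chromosome 19 block, where the nearest was -4.26, and -0.35 over the distal chromosome 19 stretch, where the nearest was -0.49. Chance flags about 1 in 20 such groups. The lowest reference signal of M12.53 lay at -5.23, against -6.51 to -5.83 on the other 3, and its part in these values was not tested.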

How the results depend on the processing

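Over 14 alternatives for the ratio and 11 for the sample dye, the adjusted p of the segment tests ran from 0.286 to 1. No setting could bring a single stretch under an adjusted 0.05. The settings that left out arrays have too few splits to pass 0.05 at all, so they bear only on the size and sign. The signs of these small differences (secondary minus primary T-LBL, log2) were not stable. With normexp signals the ratio difference was -0.0709 on chromosome 3, -0.0842 on chromosome 4 and -0.14 on proximal chromosome 19, and the sample dye difference on chromosome 11 was -0.0718. With probes whose reference was above background, the ratio difference was -0.0270 on chromosome 4, 0.00508 on chromosome 11 and 0.0285 on distal chromosome 19. With medians over probes it was 0.0134 on chromosome 11. Centred on the mode, the sample dye difference was 0.0307 on chromosome 4, 0.00901 on proximal and 0.0573 on distal chromosome 19, and with flagged spots kept it was 0.00683 on chromosome 4 and 0.00234 on distal chromosome 19. With scan as a block, the ratio difference was -0.75 on chromosome 3 and -0.14 on chromosome 4, and with slide as a block -0.99, -0.48 and, on proximal chromosome 19, -0.0711. On arrays with a first use of a slide, a setting chosen after seeing the data, the ratio difference was -0.0696 on chromosome 4, -0.0912 on proximal and 0.0294 on distal chromosome 19. There the sample dye difference was 0.0639 on chromosome 3, 0.44 on chromosome 4, 0.14 on proximal and 0.13 on distal chromosome 19. Leaving out 1 array at a time gave ratio differences of -0.50 to 0.68 on chromosome 3, -0.15 to 0.33 on chromosome 4, -0.0523 to 0.0137 on chromosome 11, -0.0699 to 0.16 on proximal and -0.0306 to 0.00256 on distal chromosome 19. For the sample dye these were -0.25 to 0.11 on chromosome 4, -0.15 to 0.0681 on proximal and -0.0575 to 0.0611 on distal chromosome 19. The cause was not tested.

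Windows called between secondary and primary T-LBL were 0 to 23 when 1 array was left out (23 without M12, none in the 5 stretches), 29 with scan as a block and 13 with slide as a block, each with 2 in the chromosome 3 stretch. The other settings gave 0, and so did all settings for primary T-LBL against myeloid. The sample dye of the chromosome 3 block was bright on 4 arrays (M7, M9, M10 and M12), on 2 (M7 and M10) at limits of 10% and 90%, and on 3 (without M12) by a level 2 log2 units under the autosomal median. By the 99th percentile of the negative controls it was bright on M12.49 and mixed on M12, so the bright call of M12 depended on the definition. The reference was bright on 1 array under every definition tried. With blocks from 6 of 8 arrays, those on chromosome 11 and distal chromosome 19 were not found. Normexp, whose offset of 50 is large beside the median net signals of 79.1 to 362 in the reference dye, gave 0.41 on M7, 0.25 on M9, 1.14 on M10 and -0.74 on M12 for the chromosome 3 block. It turned the sign on M12.52 (-0.0688), M12.50 (-0.52) and M12.53 (-0.72), and reference probes above background gave -0.0997 on M12.52. Among values of 1 or more in the other blocks, normexp turned M12.52 on chromosome 4 (-0.0779), and M9 on chromosome 11 (-0.12) and on distal chromosome 19 (-0.11), and smaller values turned there too. No paired analysis was possible because the labels give no replicate numbers that groups share. Depth limits what can be said of the secondary tumours, whose block signal lies near the negative controls.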
